A study of Mus musculus with 22 samples.

Results

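The insulin-like growth factor (IGF) axis was described in whole lungs of mice kept in normoxia or hypoxia and given ABT-263 or its vehicle. The 10 genes were chosen by name, as the rows of the deposited gene table called Igf1, Igf2, Igf1r, Igf2r, Igfbp2, Igfbp3, Igfbp4, Igfbp5, Igfbp6 and Igfbp7. They were 10 of 54532 genes in that table, and all 10 were among the 16638 genes that passed the filter on low counts. The study sequenced polyadenylated RNA from lungs of 22 young male C57BL6/j mice after 8 days. ABT-263 (navitoclax), a senolytic drug that blocks survival proteins of the BCL-2 family, was given at 50 mg/kg/day. The sample titles gave 5 libraries for normoxia with vehicle, which the study defined as its control, 6 for normoxia with ABT-263, 6 for hypoxia with vehicle and 5 for hypoxia with ABT-263. All mice shared strain, sex and the 8 days of treatment, and the oxygen level of the hypoxia is not given in the sources used here.

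Library totals ran from 11509007 to 15744193 estimated counts. For replicate 1 of normoxia with ABT-263, hypoxia with vehicle and hypoxia with ABT-263, the treatment tag went against the title, so results were also computed without these 3 libraries and with the tag in place of the title. Replicates 2 and 6 of normoxia with ABT-263 held 219 and 205 CPM (counts scaled to library size) of summed cycling-cell markers, against 24.1 to 82.7 CPM in the other 4 libraries of that group, and were also left out as a pair. The hypoxia ABT-263 libraries held 75.1 to 209 CPM of these markers, with replicate 4 highest. Each library was labelled as a separate sample, but where nothing says more, p-values measure the spread between these samples. The tissue label was borne out by its markers: summed alveolar type 2 markers ran from 29764 to 38860 CPM in the controls and summed hepatocyte markers, with liver being a main source of circulating IGF-1, stayed between 0.855 and 2.48 CPM over the 22 libraries.

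IGF-1 and IGF-2 are secreted growth factors that signal through the receptor tyrosine kinase IGF1R, while IGF2R, the cation-independent mannose 6-phosphate receptor, takes IGF-2 up and delivers it to lysosomes. The IGF-binding proteins hold IGFs in the circulation and in the matrix, where they can prolong their life, keep them from the receptor or, after cleavage by proteases, release them. IGFBP7 binds IGFs only weakly. In the lung, IGF-1 is known as a product of macrophages and mesenchymal cells, and the axis has been studied in vascular remodelling and fibrosis.

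The 2 genes whose levels differed most between oxygen conditions were Igfbp3 and Igfbp2, and the bases upstream of their starts are shown for that reason. The sequences come from RefSeq's promoter table (GRCm38.p6) and cover the 250 bases before the annotated start, 5′ to 3′ on the strand of the gene. Capitals mark matches to the core of the hypoxia-inducible factor motif, ACGTG or GCGTG, on either strand, with overlapping matches counted. The Igfbp3 window is chr11:7213924-7214173 on the minus strand. Igfbp2 has 2 windows on the plus strand, of which the upstream one, chr1:72824230-72824479, is shown.
Igfbp3: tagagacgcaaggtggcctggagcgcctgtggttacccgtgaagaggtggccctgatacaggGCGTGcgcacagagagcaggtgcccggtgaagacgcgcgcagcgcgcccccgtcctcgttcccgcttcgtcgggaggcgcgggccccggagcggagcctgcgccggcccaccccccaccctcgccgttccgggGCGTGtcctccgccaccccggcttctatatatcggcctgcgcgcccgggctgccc
Igfbp2: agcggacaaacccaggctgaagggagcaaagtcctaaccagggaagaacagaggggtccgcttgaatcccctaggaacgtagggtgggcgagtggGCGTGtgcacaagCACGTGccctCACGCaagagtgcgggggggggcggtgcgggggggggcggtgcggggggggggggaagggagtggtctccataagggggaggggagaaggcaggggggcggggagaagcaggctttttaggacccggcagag
The Igfbp3 window held 2 matches and the Igfbp2 window shown held 4, of which 2 are the same palindrome read on both strands. The other Igfbp2 window, chr1:72825137-72825386, held none. Among 32851 windows of the same length, 38.6% held at least 1 match, 16.7% at least 2 and 2.58% at least 4. These percentages are not matched for base composition. G and C made up 73.2% of the Igfbp3 window, 67.2% of the Igfbp2 window shown and 69.2% of the Igf2r window. The median over all windows was 52.4%. All 10 genes had a window in the table, and 7 of their 14 windows held a match. Igf2r had 6 matches, which 0.417% of all windows reach, and between oxygen conditions its level did not pass the test with vehicle and fell with ABT-263. Windows of Igfbp4, Igfbp5 and Igfbp6 held no match. A match is a description of the letters in this window and shows no binding.

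Hypoxia was compared with normoxia first in vehicle-treated lungs and then in ABT-263-treated lungs. In vehicle-treated lungs, 2 of the 10 genes rose (Igf1 and Igfbp2) and 3 fell (Igf1r, Igfbp3 and Igfbp4), at an adjusted p under 0.05 by edgeR's quasi-likelihood test with Benjamini-Hochberg adjustment over 16638 genes, two-sided. The background was 26.3% of all genes tested, 13.5% higher and 12.8% lower, and the genes' median log2 fold change was −0.13 against −0.004 over all genes. In ABT-263-treated lungs 3 rose (Igf1, Igfbp2 and Igfbp7) and 5 fell (Igf1r, Igf2r, Igfbp3, Igfbp4 and Igfbp6), against a background of 39.2%, 17.9% higher and 21.3% lower, with a median of −0.30 against −0.023. In both treatments 5 of the 10 genes (50%) were called in the same direction, against 3401 of 16638 genes (20.4%); of the genes called with vehicle these were 5 of 5 IGF genes and 3401 of 4380 genes overall. At an unadjusted p under 0.05 the counts were 5 and 9 of 10, against 38.1% and 47.5% of all genes. In 5 of the 10 genes the hypoxic and normoxic vehicle libraries did not overlap, against 14.0% of all genes, and with ABT-263 this held for 5 of the 10, against 17.6%. These 2 comparisons share no library, but 1 fit gave both their estimate of the spread. The 10 genes were chosen with earlier results of these data known, so their counts beside the background describe this list only. Without normoxia vehicle replicate 3, the count with vehicle fell to 3 genes, with Igf1 and Igf1r past the threshold no longer.

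**Figure D1:**
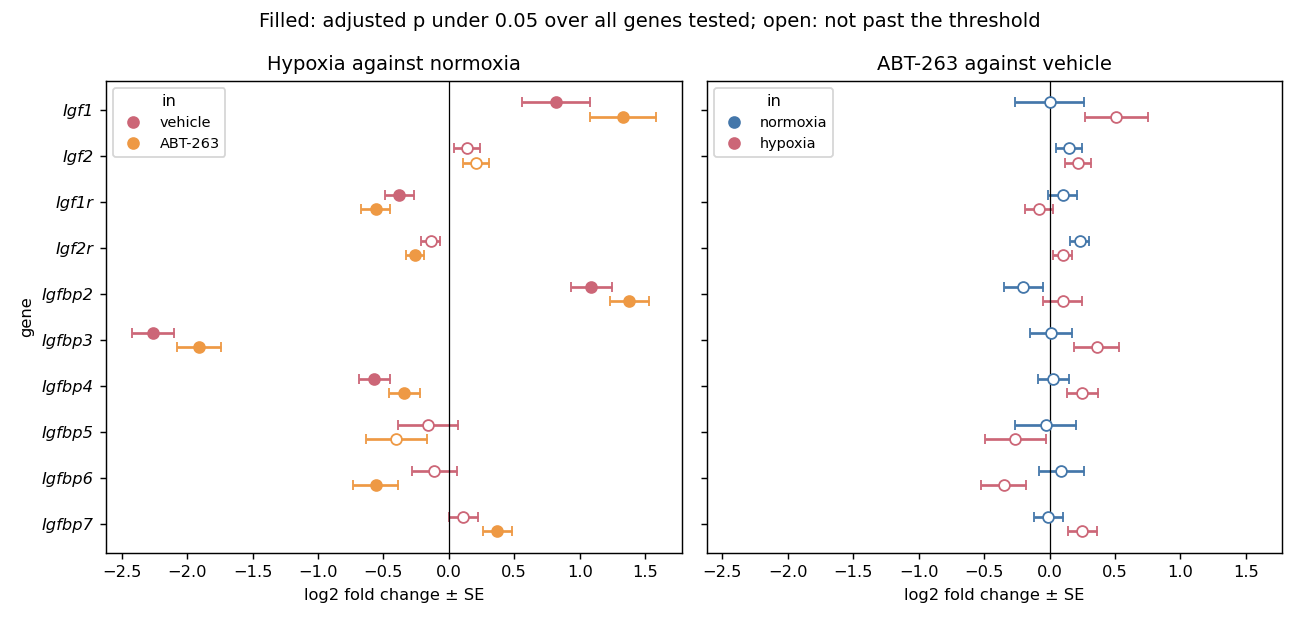
Log2 fold change of each of the 10 genes, at left for hypoxia against normoxia with vehicle and with ABT-263, at right for ABT-263 against vehicle in normoxia and in hypoxia, with bars of 1 standard error from edgeR and filled points for adjusted p under 0.05. At left Igfbp3 lies at −2.26 and −1.91 and Igfbp2 and Igf1 lie above 0 in both treatments, and at right all points are open.

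Igf1, the ligand made under growth hormone control, rose 1.77-fold in hypoxia with vehicle. Its levels were 11.0, 21.8, 13.4, 23.3 and 18.1 CPM in the 5 normoxia vehicle libraries and ran from 25.9 to 38.1 CPM, median 30.8, in the 6 hypoxia vehicle libraries. Every hypoxic library lay above every normoxic one, and the log2 fold change was 0.82 ± 0.26 (SE; adjusted p = 0.0226 by edgeR). With ABT-263 the levels ran from 9.78 to 27.1 CPM, median 17.8, in normoxia. The 5 hypoxic libraries had 33.7, 35.4, 33.8, 69.9 and 47.3 CPM, again with no overlap. Replicate 4 stood highest at 69.9 CPM. The log2 fold change with ABT-263 was 1.33 ± 0.25 (adjusted p = 0.00035 by edgeR), or 2.51-fold, and 1.11 ± 0.24 (adjusted p = 0.00101) without replicate 4. The vehicle call was lost without normoxia vehicle replicate 1 (log2 fold change 0.69, adjusted p = 0.0568) or 3 (0.74, 0.0578) and with no filter on low counts (0.82, 0.0581). Of 7 alveolar macrophage markers 3 rose and none fell in hypoxia with vehicle (5 and none with ABT-263), with sums of 256 to 474 CPM in normoxia and 558 to 723 CPM in hypoxia with vehicle. Of 7 interstitial macrophage markers 1 rose and 2 fell with vehicle (2 and 2 with ABT-263). Their sums overlapped, at 1024 to 1526 CPM in normoxia and 856 to 1457 CPM in hypoxia with vehicle. Of 8 alveolar fibroblast markers 5 rose and none fell in each treatment, and of 9 pericyte markers 5 rose with vehicle, 7 rose with ABT-263 and none fell. Of 8 adventitial fibroblast markers 1 rose and 1 fell with vehicle, and 2 rose and none fell with ABT-263. Of 8 smooth muscle markers 4 rose and 1 fell with vehicle, and 1 rose and 2 fell with ABT-263. The share of all genes called was 26.3% with vehicle and 39.2% with ABT-263. None of these markers was at 0 throughout, and the part of these cells in the rise of Igf1 was not tested.

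Igf2, the fetal growth factor expressed from the paternal allele, was low in all 4 groups. It had 12.5, 11.4, 12.7, 10.8 and 14.0 CPM in normoxia with vehicle and 11.3 to 15.6 CPM, median 13.5, in hypoxia with vehicle. The groups overlapped and the log2 fold change was 0.14 ± 0.10 (adjusted p = 0.306 by edgeR). With ABT-263 it was 0.21 ± 0.10 (adjusted p = 0.0843), and leaving out normoxia ABT-263 replicate 3, hypoxia vehicle replicate 6 or hypoxia ABT-263 replicate 4 brought it under the threshold (0.0465, 0.0405 and 0.037). Per kilobase of exon, the mean Igf1 to Igf2 ratio of levels was 0.844 in normoxia with vehicle and 1.34 in hypoxia with vehicle, and 0.761 and 1.65 with ABT-263.

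Both receptors had lower mean levels in hypoxia. Igf1r, the signalling receptor, had 50.0, 50.7, 63.9, 49.3 and 57.3 CPM in normoxia with vehicle and 35.5 to 47.2 CPM, median 42.6, in hypoxia with vehicle. The groups did not overlap, and the log2 fold change was −0.38 ± 0.11 (adjusted p = 0.0147 by edgeR). Without normoxia vehicle replicate 3, its highest normoxic library there, it was −0.31 (adjusted p = 0.0541). With ABT-263 Igf1r ran from 46.0 to 77.7 CPM, median 55.4, in normoxia and had 40.8, 40.2, 43.2, 37.1 and 35.6 CPM in hypoxia. There was again no overlap and the log2 fold change was −0.56 ± 0.11 (adjusted p = 0.000406). Igf2r, the clearance receptor, had 73.3, 82.8, 73.9, 65.7 and 78.2 CPM in normoxia with vehicle and 62.3 to 74.1 CPM, median 67.9, in hypoxia with vehicle. These ranges overlapped and the log2 fold change was −0.14 ± 0.07 (adjusted p = 0.167). With ABT-263 it ran from 79.2 to 93.4 CPM, median 88.9, in normoxia and had 69.1, 66.7, 70.3, 85.6 and 72.6 CPM in hypoxia. It fell by 0.26 ± 0.07 on the log2 scale (adjusted p = 0.00583), with hypoxia replicate 4 alone inside the normoxic range, and by 0.32 ± 0.07 without that replicate. The hypoxia effect on Igf2r was not shown to differ between treatments, with an interaction of −0.13 ± 0.10 (adjusted p = 0.765). Airn, a long RNA transcribed antisense to Igf2r and overlapping it, had 94 to 163 estimated counts per library. The counting setting for strand is not given in the sources used here, and Igf2r had a fractional estimated count in 0 of the 22 libraries.

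**Figure D2:**
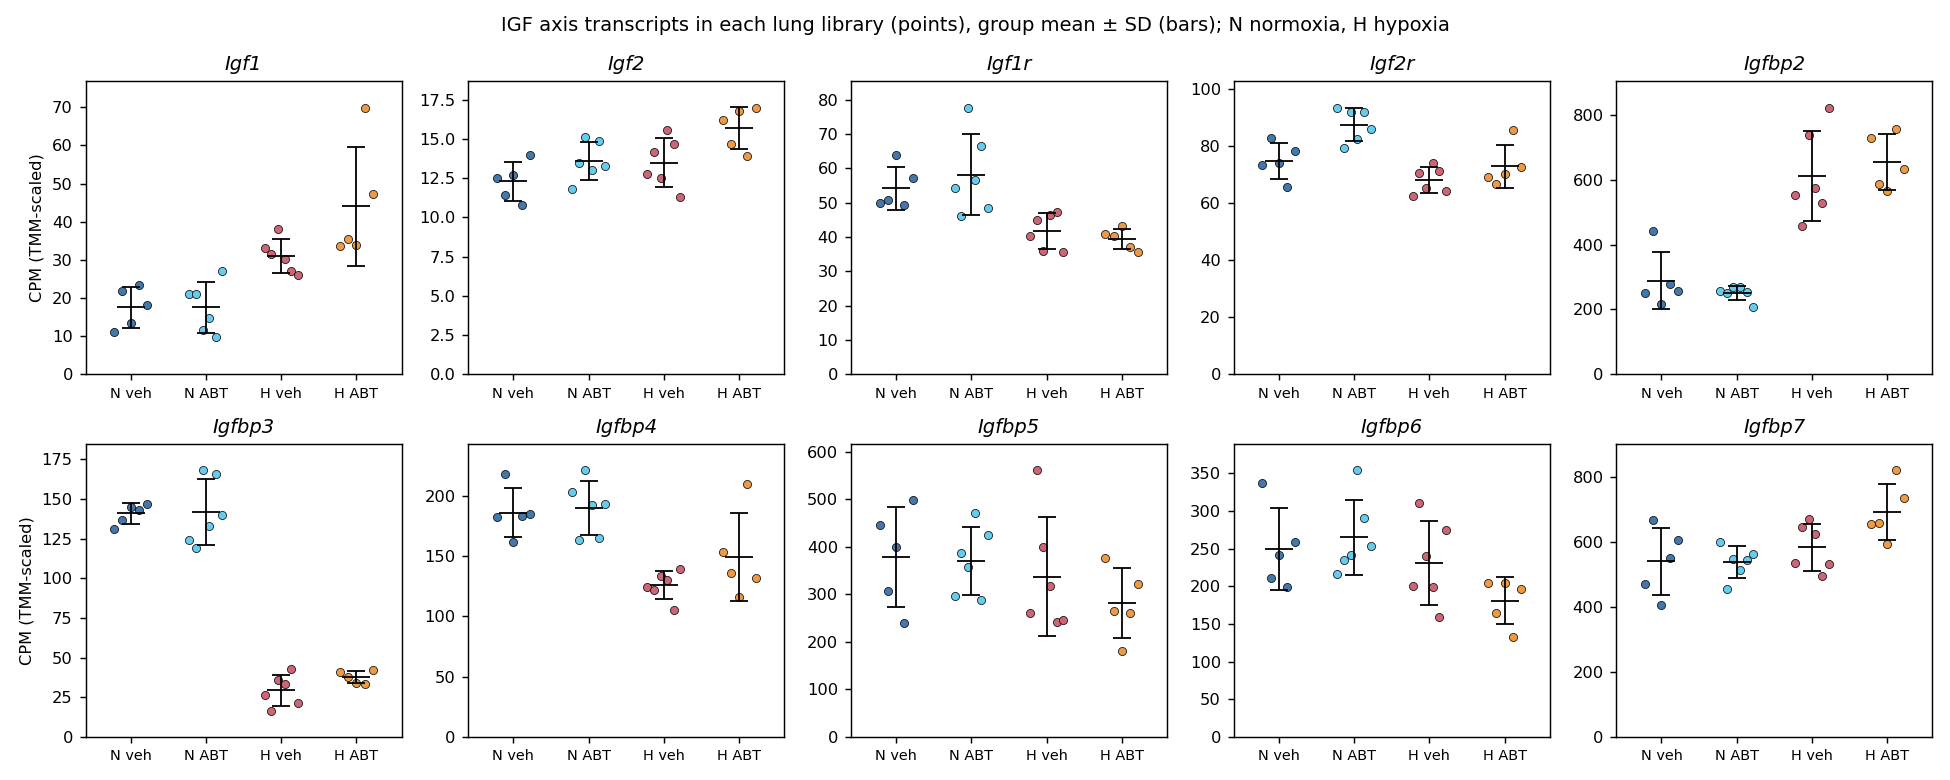
Level of each of the 10 genes in every library (points), in CPM on an axis from 0, for normoxia (N) and hypoxia (H) with vehicle or ABT-263, with each group's mean and SD (bars). Igfbp2 and Igfbp3 show separate bands for normoxia and hypoxia whatever the treatment, while Igfbp5 overlaps across all 4 groups.

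Igfbp3, the main carrier of IGFs in the circulation, fell most of the 10 genes. It had 131, 137, 145, 143 and 147 CPM in the normoxia vehicle libraries and 16.5 to 42.6 CPM, median 30.0, in the hypoxia vehicle libraries. It was 4.79-fold lower, a log2 fold change of −2.26 ± 0.16 (adjusted p = 2.31e-09 by edgeR), and 8 of the 16638 genes fell more. With ABT-263 it ran from 119 to 168 CPM, median 136, in normoxia and had 40.6, 37.8, 34.2, 33.3 and 42.2 CPM in hypoxia. That is 3.76-fold lower (log2 fold change −1.91 ± 0.17, adjusted p = 2.41e-08). All 11 normoxic libraries lay between 119 and 168 CPM and all 11 hypoxic ones between 16.5 and 42.6 CPM. Only Igfbp2 of the other 9 genes separated all 22 libraries by oxygen in this way, as did 5.37% of all genes tested. The hypoxia vehicle group was the most variable for Igfbp3, with a coefficient of variation of 33.2% against 10.3% in hypoxia with ABT-263. In bulk lung, fewer cells of a type and less RNA per cell cannot be told apart. Of 10 pan-endothelial markers, 5 fell and 2 rose in hypoxia with vehicle (2 and 2 with ABT-263). Their summed levels with vehicle were 2936 to 3616 CPM in normoxia and 2684 to 3293 CPM in hypoxia. Over all genes tested, 26.3% were called with vehicle and 39.2% with ABT-263, so the ABT-263 count of this list was near that share. Of 8 general capillary markers 4 fell and 1 rose (3 and 2 with ABT-263), with sums of 1888 to 2459 and 1655 to 2006 CPM with vehicle. With ABT-263 these sums overlapped widely, at 1801 to 2510 and 1783 to 2439 CPM. None of either list was at 0 throughout. With vehicle, 3 fell and 1 rose of 7 aerocyte markers, and 3 fell and 2 rose of 8 artery markers. Of 5 vein markers tested 1 fell and none rose in each treatment, and of 5 lymphatic markers tested 1 fell and 3 rose in each. The summed level of the lymphatic markers went the other way with vehicle, at 144 to 239 CPM in normoxia and 97.0 to 133 CPM in hypoxia. With ABT-263 their sums overlapped, at 165 to 248 and 111 to 247 CPM. The part of these cells in the fall of Igfbp3 was not tested.

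Igfbp2, a binding protein of fetal tissues and of the alveolar epithelium and mesenchyme, rose most. It had 250, 442, 218, 277 and 256 CPM in normoxia with vehicle, where replicate 2 stood apart, and 457 to 823 CPM, median 565, in hypoxia with vehicle. It rose 2.12-fold, a log2 fold change of 1.09 ± 0.16 (adjusted p = 2.21e-05 by edgeR), and 273 genes rose more. Without normoxia vehicle replicate 2 the log2 fold change was 1.29 ± 0.14 (adjusted p = 3.03e-07). With ABT-263 it ran from 208 to 268 CPM, median 256, in normoxia and had 728, 587, 566, 758 and 634 CPM in hypoxia. That is 2.61-fold higher (log2 fold change 1.38 ± 0.15, adjusted p = 4.74e-07). Across treatments, the 11 normoxic libraries lay between 208 and 442 CPM and the 11 hypoxic ones between 457 and 823 CPM. Of 8 alveolar fibroblast markers 5 rose and none fell in hypoxia in either treatment, with sums of 3809 to 4262 CPM in normoxia and 4263 to 5067 CPM in hypoxia with vehicle. With ABT-263 these sums overlapped, at 3152 to 4440 CPM in normoxia and 3874 to 5260 CPM in hypoxia. Of 8 adventitial fibroblast markers 1 rose and 1 fell with vehicle, and 2 rose and none fell with ABT-263. Of 9 pericyte markers 5 rose with vehicle (7 with ABT-263), with sums of 457 to 670 and 729 to 773 CPM. Of 7 alveolar type 1 markers 2 rose and none fell in each treatment, while of 7 alveolar type 2 markers none rose and 4 fell in each. Counted in either direction, the alveolar type 1 count was near the 26.3% of all genes called with vehicle and below the 39.2% called with ABT-263. By direction the background was 13.5% higher and 12.8% lower with vehicle, and 17.9% higher and 21.3% lower with ABT-263. None of these markers was at 0 throughout, and their part in the rise of Igfbp2 was not tested.

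**Figure D3:**
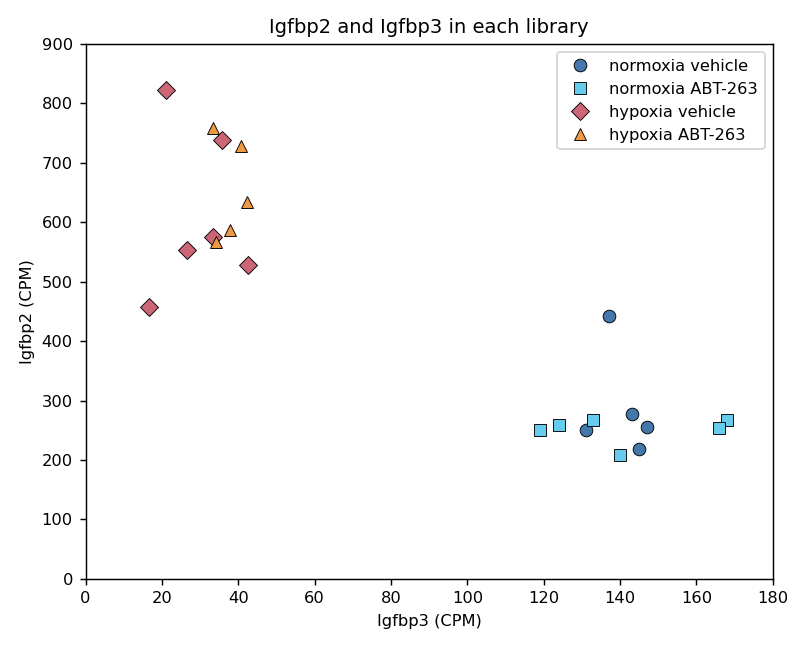
Igfbp2 against Igfbp3 level in each of the 22 libraries, both in CPM on linear axes, with a marker for each group. The normoxic libraries gather at 119 to 168 CPM of Igfbp3 and the hypoxic libraries at 16.5 to 42.6 CPM, with higher Igfbp2.

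Igfbp4, a binding protein cleaved by the protease PAPP-A, fell in both treatments. It had 182, 218, 162, 183 and 185 CPM in normoxia with vehicle and 105 to 139 CPM, median 127, in hypoxia with vehicle, with no overlap. The log2 fold change was −0.57 ± 0.12 (adjusted p = 0.000846 by edgeR). With ABT-263 it ran from 163 to 221 CPM, median 193, in normoxia and had 153, 136, 116, 210 and 132 CPM in hypoxia, where replicate 4 lay inside the normoxic range. The log2 fold change was −0.34 ± 0.12 (adjusted p = 0.0215), and −0.49 ± 0.10 (adjusted p = 0.000404) without that replicate. The ABT-263 call was lost in the fit of only the compared groups (adjusted p = 0.0682), without the 3 libraries with conflicting tags (0.0815), without normoxia ABT-263 replicate 1 or 3 (0.0528 and 0.0674) and without hypoxia ABT-263 replicate 2, 3 or 5 (0.0578, 0.0793 and 0.0754), with log2 fold changes between −0.32 and −0.26 in all of these.

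Igfbp5, a matrix-bound binding protein, lies tail to tail with Igfbp2 on chromosome 1, 5.5 kb away. It had 445, 306, 399, 240 and 498 CPM in normoxia with vehicle and 241 to 561 CPM, median 289, in hypoxia with vehicle. The groups overlapped widely, and the log2 fold change was −0.16 ± 0.23 (adjusted p = 0.653 by edgeR) while its neighbour rose. With ABT-263 it was −0.40 ± 0.23 (adjusted p = 0.186), and −0.58 (adjusted p = 0.048) where the treatment was taken from the tag. Igfbp1, which lies 3.5 kb from Igfbp3 on chromosome 11 and is a liver-made binding protein induced in hypoxia, had 0 to 2 estimated counts per library, too few to test.

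Igfbp6, a binding protein that prefers IGF-2, had 337, 211, 242, 199 and 259 CPM in normoxia with vehicle and 159 to 310 CPM, median 220, in hypoxia with vehicle. The log2 fold change was −0.11 ± 0.17 (adjusted p = 0.66 by edgeR). With ABT-263 it ran from 216 to 354 CPM, median 248, in normoxia and had 204, 165, 205, 132 and 196 CPM in hypoxia. There the groups did not overlap and it fell by 0.56 ± 0.17 on the log2 scale (adjusted p = 0.0123), or by 0.45 ± 0.17 (adjusted p = 0.0437) without the lowest library, replicate 4. The interaction was −0.44 ± 0.24 (adjusted p = 0.598), so the hypoxia effect was not shown to differ between treatments.

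Igfbp7, a secreted protein of vessels, had the highest level per kilobase. It ran from 406 to 665 CPM in normoxia with vehicle and from 494 to 669 CPM in hypoxia with vehicle, overlapping widely, with a log2 fold change of 0.11 ± 0.11 (adjusted p = 0.503 by edgeR). With ABT-263 it ran from 455 to 600 CPM in normoxia and had 654, 657, 592, 819 and 735 CPM in hypoxia. It rose by 0.37 ± 0.11 on the log2 scale (adjusted p = 0.0124), with hypoxia replicate 3 alone inside the normoxic range, and by 0.31 ± 0.11 (adjusted p = 0.0348) without the highest library, replicate 4. The interaction was 0.25 ± 0.16 (adjusted p = 0.664).

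Between genes, levels (not differences) were compared in CPM per kilobase of merged exons. In normoxia with vehicle the order of mean level was Igfbp7 at 446 CPM per kilobase, Igfbp6 at 224, Igfbp2 at 156, Igfbp5 at 62.9, Igfbp3 at 44.9, Igfbp4 at 42.1, Igf2r at 8.03, Igf1r at 3.23, Igf2 at 2.15 and Igf1 at 1.77. Neighbours whose ranges overlapped were Igfbp6 and Igfbp2, Igfbp5 and Igfbp3, Igfbp3 and Igfbp4, and Igf2 and Igf1. In hypoxia with vehicle Igfbp2 stood at 332 CPM per kilobase, ahead of Igfbp6 at 207, and Igfbp3 at 9.37 came after Igfbp4 at 28.5 and next to Igf2r at 7.30. The ranges of Igfbp7 and Igfbp2, Igfbp2 and Igfbp6, Igfbp3 and Igf2r, Igf1 and Igf1r, and Igf1r and Igf2 overlapped there. Igf1 moved from last place to 3.12 CPM per kilobase, ahead of Igf1r at 2.48 and Igf2 at 2.36.

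Taken as shares of the summed level of Igfbp2 to Igfbp7 per kilobase, Igfbp3 held 4.66% ± 0.688 (SD, n = 5) of the binding protein transcripts in normoxia with vehicle and 0.867% ± 0.366 (SD, n = 6) in hypoxia with vehicle. With ABT-263 its shares were 4.67% ± 0.623 and 1.02% ± 0.12. Igfbp2 held 15.8% ± 3.28 in normoxia with vehicle and 29.8% ± 5.21 in hypoxia with vehicle, and 14.1% ± 1.36 and 30.0% ± 1.70 with ABT-263. Igfbp7 held 45.5% and 43.4% with vehicle and 45.9% and 48.3% with ABT-263. Igfbp6 held 23.2% and 18.5%, and 24.6% and 13.9%. The summed level was 977 ± 117 CPM per kilobase in normoxia with vehicle and 1115 ± 137 in hypoxia with vehicle. The ratio of Igfbp2 to Igfbp3 per kilobase was 3.50 ± 1.14 in normoxia and 38.9 ± 15.7 in hypoxia with vehicle, and 3.06 ± 0.493 and 29.8 ± 5.28 with ABT-263. These shares and ratios are descriptions and were not tested.

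**Figure D4:**
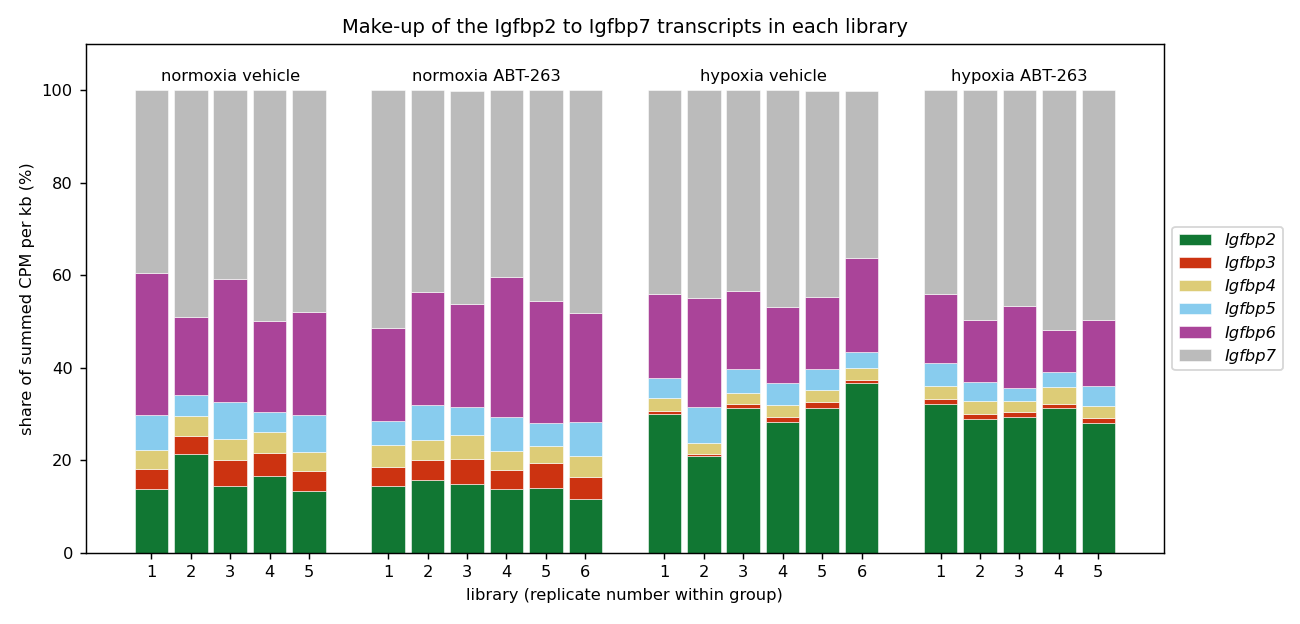
Share of each binding protein transcript, Igfbp2 to Igfbp7, in their summed level per kilobase of exon, in percent, as stacked bars for each library by group. On average Igfbp2 takes 15.8% in normoxia and 29.8% in hypoxia with vehicle, while Igfbp3 shrinks from 4.66% to 0.867%.

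ABT-263 was compared with vehicle within each oxygen condition, to ask what the senolytic drug changed. No IGF gene passed the test by edgeR in normoxia (background 0.535%, 0.108% higher and 0.427% lower), in hypoxia (0.301%, 0.114% and 0.186%) or averaged over both (2.54%, 1.23% and 1.31%). At an unadjusted p under 0.05 there were 1 of 10 in normoxia (Igf2r), 5 of 10 in hypoxia (Igf2, Igfbp3, Igfbp4, Igfbp6 and Igfbp7) and 2 of 10 in the average (Igf2 and Igf2r), against 13.0%, 14.3% and 17.3% of all genes. The background shares at an adjusted p within each oxygen condition rest on few calls, 89 genes in normoxia and 50 in hypoxia. With a library left out these counts ran from 1 to 183 and from 3 to 228. With treatment taken from the tag, 0 genes were called in both and in the average. Log2 fold changes of the 10 genes ran from −0.20 to 0.23 in normoxia and from −0.35 to 0.51 in hypoxia. DESeq2 called Igf2r alone in the average, with a log2 fold change of 0.16 ± 0.05 and an adjusted p of 0.0415, where edgeR gave an adjusted p of 0.0876. Igf1 was highest in the hypoxia ABT-263 group, yet the interaction of hypoxia and ABT-263 was 0.51 ± 0.36 (adjusted p = 0.715 by edgeR). For Igfbp3 the interaction was 0.35 ± 0.23 (adjusted p = 0.686). No gene of the 16638 passed the edgeR test of the interaction (0 at an adjusted p, 1546 or 9.29% at an unadjusted p under 0.05, 17 by DESeq2), and none of the 10 reached an unadjusted p under 0.05. Standard errors of the interaction, at a median of 0.16 over all genes, limit what could be seen.

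Other genes of the pathway were taken from lists. Among proteases that cleave IGF-binding proteins and their inhibitors, 4 rose and 2 fell of 10 tested in hypoxia with vehicle, with a median log2 fold change of 0.25. Over all genes tested, 13.5% rose and 12.8% fell with vehicle, and 17.9% rose and 21.3% fell with ABT-263. Pappa2, a protease of IGFBP3 and IGFBP5, rose by 1.17 ± 0.28 on the log2 scale (adjusted p = 0.00318 by edgeR), from 1.11 to 2.48 CPM on average. Stc2, an inhibitor of the pappalysins, rose by 0.81 ± 0.16 (adjusted p = 0.000738), and Adamts1, a matrix protease, by 0.70 ± 0.16 (adjusted p = 0.00293). Mmp9, a gelatinase of leukocytes, fell by 1.23 ± 0.25 (adjusted p = 0.00101). Stc1, the paralog of Stc2, fell by 0.85 ± 0.22 (adjusted p = 0.00551); it was named after its value was seen. With ABT-263, 5 rose and 2 fell, and Pappa2 rose by 2.23 ± 0.28 (adjusted p = 1.39e-06). Pappa, the protease of IGFBP4, had −0.11 ± 0.31 with vehicle (adjusted p = 0.824).

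Of 10 genes of growth hormone signalling, which drives Igf1 in liver, none rose and 3 fell in hypoxia in each treatment, with medians of −0.08 and 0.03. Counted in either direction, this share was near the background of 26.3% with vehicle and below that of 39.2% with ABT-263. By direction the background was 13.5% higher and 12.8% lower with vehicle, and 17.9% higher and 21.3% lower with ABT-263. With vehicle these were Ptpn6, a phosphatase of blood cells (−0.53 ± 0.08, adjusted p = 2.94e-05 by edgeR), Stat5b (−0.35 ± 0.07, adjusted p = 0.000532) and Stat5a (−0.24 ± 0.09, adjusted p = 0.0453), the transcription factors downstream of the receptor. The receptor gene itself, Ghr, averaged 103 CPM in normoxia and 102 CPM in hypoxia with vehicle. Of 6 B cell markers all 6 fell in hypoxia in each treatment, and of 6 NK cell markers 4 fell in each. Of 6 neutrophil markers none rose, while 2 fell with vehicle and 3 with ABT-263. The part of these cells in the values of Ptpn6 and Mmp9 was not tested.

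Downstream of IGF1R and the insulin receptor, 4 rose and 7 fell of 26 signalling genes tested with vehicle (median −0.17), and 4 rose and 11 fell with ABT-263 (median −0.20). Of all genes tested, 13.5% rose and 12.8% fell with vehicle, and 17.9% rose and 21.3% fell with ABT-263. Among those called with vehicle were Pik3r3, a regulatory subunit of PI 3-kinase (0.50 ± 0.07, adjusted p = 2.13e-05 by edgeR), Foxo1, a transcription factor restrained by insulin signalling (−0.64 ± 0.10, adjusted p = 6.95e-05), and Irs2, a docking protein of the receptors (−0.61 ± 0.12, adjusted p = 0.000498). Pik3cd, the leukocyte PI 3-kinase subunit, fell with ABT-263 averaged over oxygen by 0.38 ± 0.08 (adjusted p = 0.0124 by edgeR). All 6 T cell and all 6 B cell markers fell in that average, against 1.31% of all genes tested. None of these calls was made with treatment taken from the tag, which left 0 genes called. Other IGF family genes did not pass the test with vehicle (0 of 6 tested, median −0.04). With ABT-263 Insr, the insulin receptor, fell by 0.20 ± 0.07 (adjusted p = 0.0268) and Igf2bp2, an RNA-binding protein of Igf2 mRNA, by 0.55 ± 0.11 (adjusted p = 0.000365).

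Among relatives with an IGFBP domain, which include the CCN matrix proteins, 5 rose and 2 fell of 11 tested with vehicle (median 0.12), and 4 rose and 3 fell with ABT-263 (median 0.07). The background was 26.3% of all genes with vehicle (13.5% higher and 12.8% lower) and 39.2% with ABT-263 (17.9% and 21.3%). Esm1, an endothelial proteoglycan, fell by 1.80 ± 0.22 on the log2 scale with vehicle (adjusted p = 4.45e-06 by edgeR), from 41.9 to 12.0 CPM on average. The CCN genes Wisp2 (1.01 ± 0.15, adjusted p = 4.23e-05), Wisp1 (1.23 ± 0.21, adjusted p = 9.47e-05) and Ctgf (0.88 ± 0.16, adjusted p = 0.000333) rose. Among genes of the imprinted growth network, to which Igf2 and Igf2r belong, 4 rose and none fell of 13 tested with vehicle (median 0.18), a share called near the background of 26.3%. Those that rose were Mest (1.12 ± 0.20, adjusted p = 0.000316), Cdkn1c (0.42 ± 0.09, adjusted p = 0.00172), Grb10 (0.37 ± 0.08, adjusted p = 0.0021), an inhibitor of IGF1R signalling, and Meg3 (1.15 ± 0.27, adjusted p = 0.00252). With ABT-263, 5 of the 13 rose and 3 fell, Igf2r among them (median 0.08). Slc38a4, an imprinted amino acid transporter, was higher with ABT-263 than with vehicle in normoxia (0.51 ± 0.11, adjusted p = 0.0328) and averaged over oxygen (0.39 ± 0.08, adjusted p = 0.0103), calls that were also lost with treatment taken from the tag.

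The genes whose pattern was most like that of 4 IGF genes were named by Pearson's r of log2 CPM over the 22 libraries, among 11871 genes with a mean of at least 5 CPM. As 11 libraries are normoxic and 11 hypoxic, genes that differ with oxygen are alike by that alone, and r is given as a measure of likeness only. Most like Igfbp3 were Dll4, a Notch ligand of endothelium (0.976), Cd300lg, an endothelial receptor (0.970), Fmo1 (0.959), Myzap (0.951) and Hpgd, which degrades prostaglandins (0.947). Most like Igfbp2 were Vstm4 (0.957), Gria3 (0.948), Gyg, a glycogenin (0.944), Mrc1 (0.941) and Mrc2 (0.940). Gyg is also among the alveolar fibroblast markers used here, and Mrc1 is among the alveolar macrophage markers. Most like Igfbp4 was Psap (0.902), and most like Igf1r was Itpr1 (0.918). After each group's mean was removed, the likest genes were others: Mtm1 for Igfbp3 (0.717), Scnn1g for Igfbp2 (0.802), Ifnar2 for Igfbp4 (0.888) and Slc4a8 for Igf1r (0.829).

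Positions are given in GRCm38 by GENCODE M21, which holds 54495 of the table's 54532 identifiers; the annotation release of the table is not given in the sources used here. Igf1 (ENSMUSG00000020053) lies at chr10:87858265-87937042 and Igf2 (ENSMUSG00000048583) at chr7:142650766-142666816. Igf1r (ENSMUSG00000005533) lies at chr7:67952827-68233668 and Igf2r (ENSMUSG00000023830) at chr17:12682406-12769664. Igfbp2 (ENSMUSG00000039323) lies at chr1:72824503-72852474, Igfbp5 (ENSMUSG00000026185) at chr1:72857932-72874884 and Igfbp3 (ENSMUSG00000020427) at chr11:7206086-7213923. Igfbp4 (ENSMUSG00000017493) lies at chr11:99041244-99054392, Igfbp6 (ENSMUSG00000023046) at chr15:102144362-102149511 and Igfbp7 (ENSMUSG00000036256) at chr5:77349240-77408041. Igfbp7 overlaps Polr2b on the opposite strand and had fractional counts in all 22 libraries, Igf2 in 11 and Igfbp5 in 8, as arises where reads are divided among genes.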

How the data were processed

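Lung RNA from 22 mice was analysed from the authors' deposited table of expected counts per gene, estimated with RSEM; the submitters' processing notes name Trimmomatic, STAR, RSEM and GRCm38, without versions. Libraries were made with a stranded poly(A) kit, per the labels' protocols, and the strand setting of the counting is not given in the sources used here. Counts were rounded, filtered (filterByExpr, minimum count 10), scaled by TMM and fitted with edgeR 4.0.16 (R 4.3.3) in 1 model of the 4 title groups, with 6 contrasts and Benjamini-Hochberg adjustment over 16638 genes at 0.05. Fold changes are log2 with their SE. The method was tested on simulated data. CPM use TMM-scaled totals, and levels between genes are per kilobase of merged GENCODE M21 exons. Between libraries of a group the chi-square per gene was at least 5.35, so none agreed within sampling noise. DESeq2 1.42.0, limma-voom 3.58.1, other scalings, filters and left-out libraries were alternatives. The 10 genes and all lists were chosen with earlier results of these data known. Named genes were all 10, up to 4 per pathway list and contrast with the smallest p past the threshold, and the 5 most alike genes (fewer are printed for some). One gene that this rule names is not reported here.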

Additional observations from a re-analysis of the deposited data

Results flagged for a closer look

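Among 40 groups of 5 or 6 libraries, 1 for each of the 10 genes in each of the 4 groups, 2 held a library whose gap to the nearest other exceeded Dixon's 95% critical value; chance flags about 1 in 20. Both concerned Igfbp2. In normoxia with vehicle, replicate 2 was highest at 442 CPM against 218 to 277 CPM in the other 4 libraries, a gap of 0.736 of the range against a critical value of 0.71. In normoxia with ABT-263, replicate 6 was lowest at 208 CPM against 251 to 268 CPM in the other 5 libraries, a gap of 0.707 against 0.625. Without the first, Igfbp2 rose by 1.29 ± 0.14 on the log2 scale in hypoxia with vehicle (adjusted p = 3.03e-07 by edgeR), and without the second it rose by 1.35 ± 0.16 with ABT-263 (adjusted p = 1.7e-06).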

How the results depend on the processing

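The number of the 10 genes called in hypoxia with vehicle was 4 or 5 under 11 other settings and 3 to 5 with each library left out, and it was 3 only without normoxia vehicle replicate 3. With ABT-263 it was 7 to 9 under both kinds of change. In the average ABT-263 effect DESeq2 called 1 of the 10. For hypoxia with vehicle, Igfbp3 stayed between −2.33 and −2.12 on the log2 scale under the other settings and between −2.40 and −2.14 with a library left out, and Igfbp2 between 1.06 and 1.18 and between 0.99 and 1.29. Igfbp6 with vehicle changed sign to 0.02 (adjusted p = 0.953 by edgeR) without normoxia vehicle replicate 1, and ranged from −0.22 to 0.02 with a library left out; the cause was not tested. By CPM without division by exon length, the Igfbp3 share was 7.97% in normoxia and 1.58% in hypoxia with vehicle, since Igfbp6 and Igfbp7 have shorter exons. Over all genes, the ABT-263 counts moved by over 1.5 times under several settings: 89 in normoxia became 324 by DESeq2, 17 with only the compared groups, 16 without the 3 libraries with conflicting tags, 0 with treatment taken from the tag and 1 to 183 with a library left out. In hypoxia 50 became 247 by DESeq2, 12 by limma-voom, 0 with the tag and 3 to 228 with a library left out. In the average 423 became 793, 239 and 0, and 164 to 649. With only the compared groups, 50 in hypoxia became 152. Without normoxia ABT-263 replicates 2 and 6, 50 in hypoxia became 257 and 89 in normoxia became 147. Without that pair the interaction had 8 genes called, where the main fit had 0. No paired analysis was possible because the titles give no replicate numbers and the numbers used here follow accession order. The 5 or 6 libraries per group limit what the interaction can show.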
